A study of Mus musculus with 4 samples.

Results

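Of the mouse Ugt2 family, 8 genes (Ugt2b1, Ugt2b5, Ugt2b34, Ugt2b35, Ugt2b36, Ugt2b37, Ugt2b38 and Ugt2a3) were followed by symbol in 4 single-nucleus RNA libraries of liver, out of 32285 genes in each count table. Ugt2a1 and Ugt2a2 were measured too but are not among these 8. Below, the family and its members mean the 8 genes only. The aged group held 2 libraries from mice aged 30 months and the young group held 2 libraries from mice aged 2 months. All 4 came from male, wild type animals of the inbred strain C57BL6/J. Whether the replicates of a group are different animals is not stated in the labels, so p-values here describe only how these libraries vary, and that variation may be technical. Single-nucleus sequencing counts RNA molecules, each marked by a unique molecular identifier (UMI), inside droplets that hold a nucleus together with some free RNA of the suspension.

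UDP-glucuronosyltransferases sit in the membrane of the endoplasmic reticulum and join glucuronic acid, taken from UDP-glucuronate, to steroids, bile acids, phenols and drugs, which makes these molecules soluble enough to leave in bile or urine. Hepatocytes are a main site of this reaction. Each Ugt2b enzyme is read from a complete gene of its own, whereas the Ugt1a enzymes are made by joining alternative first exons to a shared set of later exons. Hepatocytes differ along the path of blood through the liver lobule, and those near the central vein (pericentral) are known for drug metabolism, while those near the portal vein (periportal) are known for making glucose and urea.

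The 8 genes lie side by side on chromosome 5 of mm10, from 86889767 to 87424203, a stretch of 534 kb. Ugt2b34 starts the row at chr5:86889767-86906937, followed by Ugt2b1 at chr5:86916638-86926530, Ugt2b35 at chr5:87000860-87013275, Ugt2b36 at chr5:87065927-87092555, Ugt2b5 at chr5:87124960-87140318, Ugt2b37 at chr5:87240493-87254804, Ugt2a3 at chr5:87324972-87337195 and Ugt2b38 at chr5:87409942-87424203. Ugt2b35 is read from the plus strand and the other 7 from the minus strand. All 8 are annotated as protein coding, and the longest transcript has 5 exons in Ugt2b34 and 6 in each of the others.

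The genes are near copies of one another to very different degrees. The longest open reading frame of Ugt2b5 was 97.0% identical to that of Ugt2b38 and 94.7% identical to that of Ugt2b37, while Ugt2a3 reached at most 69.7% with any other member, namely Ugt2b1 and Ugt2b34. Of all 90-base words in the transcripts, 25.8% of those of Ugt2b5 and 25.2% of those of Ugt2b38 also occurred in a transcript of another gene, against 2.16% for Ugt2b37, 1.08% for Ugt2a3, 0.51% for Ugt2b34 and 0 for Ugt2b1, Ugt2b35 and Ugt2b36. Counts of Ugt2b5 and Ugt2b38 are therefore uncertain where a read fell in such a stretch, since the counting could not tell those copies apart.

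The promoters of Ugt2b5, Ugt2b37 and Ugt2b38 are shown because these 3 genes are the closest copies, yet Ugt2b5 was common and the other two were rare, and Ugt2b38 went the other way along the lobule. Each sequence runs from 250 bases before to 50 bases after the gene's start in RefSeq (GRCm38.p6, minus strand, chr5:87140291-87140590, chr5:87254739-87255038 and chr5:87424154-87424453), and capitals mark the runs of at least 20 bases that all 3 share.
Ugt2b5: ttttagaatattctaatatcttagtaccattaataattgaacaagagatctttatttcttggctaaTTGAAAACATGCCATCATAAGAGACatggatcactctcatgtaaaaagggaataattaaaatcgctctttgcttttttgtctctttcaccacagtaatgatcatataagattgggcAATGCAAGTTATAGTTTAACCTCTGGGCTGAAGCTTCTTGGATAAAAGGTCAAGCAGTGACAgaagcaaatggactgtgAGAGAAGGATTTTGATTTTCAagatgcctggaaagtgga
Ugt2b37: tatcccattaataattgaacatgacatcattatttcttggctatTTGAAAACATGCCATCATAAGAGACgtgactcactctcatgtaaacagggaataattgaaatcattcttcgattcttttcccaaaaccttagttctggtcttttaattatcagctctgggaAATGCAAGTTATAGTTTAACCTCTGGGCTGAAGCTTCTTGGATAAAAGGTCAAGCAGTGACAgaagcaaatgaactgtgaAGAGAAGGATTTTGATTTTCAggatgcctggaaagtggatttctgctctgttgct
Ugt2b38: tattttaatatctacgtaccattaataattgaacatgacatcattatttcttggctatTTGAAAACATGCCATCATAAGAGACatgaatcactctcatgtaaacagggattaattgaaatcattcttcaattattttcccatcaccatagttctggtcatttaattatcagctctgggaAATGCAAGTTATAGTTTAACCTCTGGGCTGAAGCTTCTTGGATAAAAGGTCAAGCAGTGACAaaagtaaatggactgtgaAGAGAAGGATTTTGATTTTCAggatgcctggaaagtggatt
The 3 promoters shared 108 of 300 bases in 3 such runs, the longest of 62 bases, and the whole windows of Ugt2b37 and Ugt2b38 were 91.0% identical. The nuclear receptor element AGGTCA lies inside the longest run, and an exact match to it was found in 5 of 8 members (Ugt2b5, Ugt2b35, Ugt2b36, Ugt2b37 and Ugt2b38), against 16.3% of 32851 promoters. The FOXA element TGTTTAC, searched like every motif on both strands, was found in Ugt2b35, Ugt2b37 and Ugt2b38 and in 3.65% of all promoters. The C/EBP element TTGCNNAA was found in Ugt2b1, Ugt2b5, Ugt2b36 and Ugt2a3 and in 10.8% of all promoters.

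The promoter of Ugt2a3 is shown because it alone among the 8 held an exact match to GTTAAT, which is part of an HNF1 site. The letters are in capitals, at 2 places 1 base apart (GRCm38.p6, minus strand, chr5:87337146-87337445).
Ugt2a3: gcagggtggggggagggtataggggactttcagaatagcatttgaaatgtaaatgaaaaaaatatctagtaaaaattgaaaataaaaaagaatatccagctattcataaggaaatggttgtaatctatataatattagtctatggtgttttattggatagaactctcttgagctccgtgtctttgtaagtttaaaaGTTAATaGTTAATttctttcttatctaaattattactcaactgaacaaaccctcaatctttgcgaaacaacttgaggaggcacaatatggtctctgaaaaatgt
GTTAAT was present in 7.099% of all promoters. Only these exact letters were searched. Whether the other members hold HNF1 sites with other letters was not tested. The letters of the HNF4 element CAAAGTCCA (0.475% of all promoters) and of the STAT element TTCNNNGAA (8.30%) were in none of the 8 windows.

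The count tables held 43013 barcodes and 122843933 UMIs, from 11799751 to 54777101 UMIs per library. After filtering, 33225 nuclei remained, and 25088 of them were hepatocyte-like by their marker genes: 5574 and 8552 in aged replicates 1 and 2, and 1422 and 9540 in young replicates 1 and 2. Their median depth was 2264 and 2971 UMIs in the aged libraries and 3574 and 928 UMIs in the young ones. Clustering was run without the 8 genes, and the nuclei of each library formed hepatocyte-like clusters of their own (clusters 15, 16 and 17 for aged replicate 1, clusters 6, 9 and 10 for aged replicate 2, parts of cluster 0 for young replicate 1, and clusters 3, 4 and 7 for young replicate 2). All 10 hepatocyte markers were detected in each library, with summed levels of 22359 and 18444 CPM (counts per 1000000) in aged and 22905 and 23094 CPM in young hepatocyte-like nuclei. Between 2.24% and 10.5% of the kept nuclei of a library stayed unnamed, each in a cluster with markers of 2 classes: 5.69% and 2.24% in the aged libraries and 10.5% and 3.47% in the young ones.

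Aged replicate 1 stood apart from the other libraries in its sex-biased liver genes. The 18 male-biased genes listed for this purpose summed to 4298 and 15546 unscaled CPM in aged replicates 1 and 2, against 29952 and 21089 unscaled CPM in young replicates 1 and 2. The 19 female-biased genes summed to 1633 and 25.4 unscaled CPM in the aged libraries, against 20.4 and 37.2 in the young ones, and Cyp2b9 alone gave 848 in aged replicate 1. Ugt2b1 and Ugt2b38 are known as genes with higher RNA in male than in female mouse liver, so their values are given for each library apart; the part of this difference between libraries in the results was not tested.

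**Figure D1:**
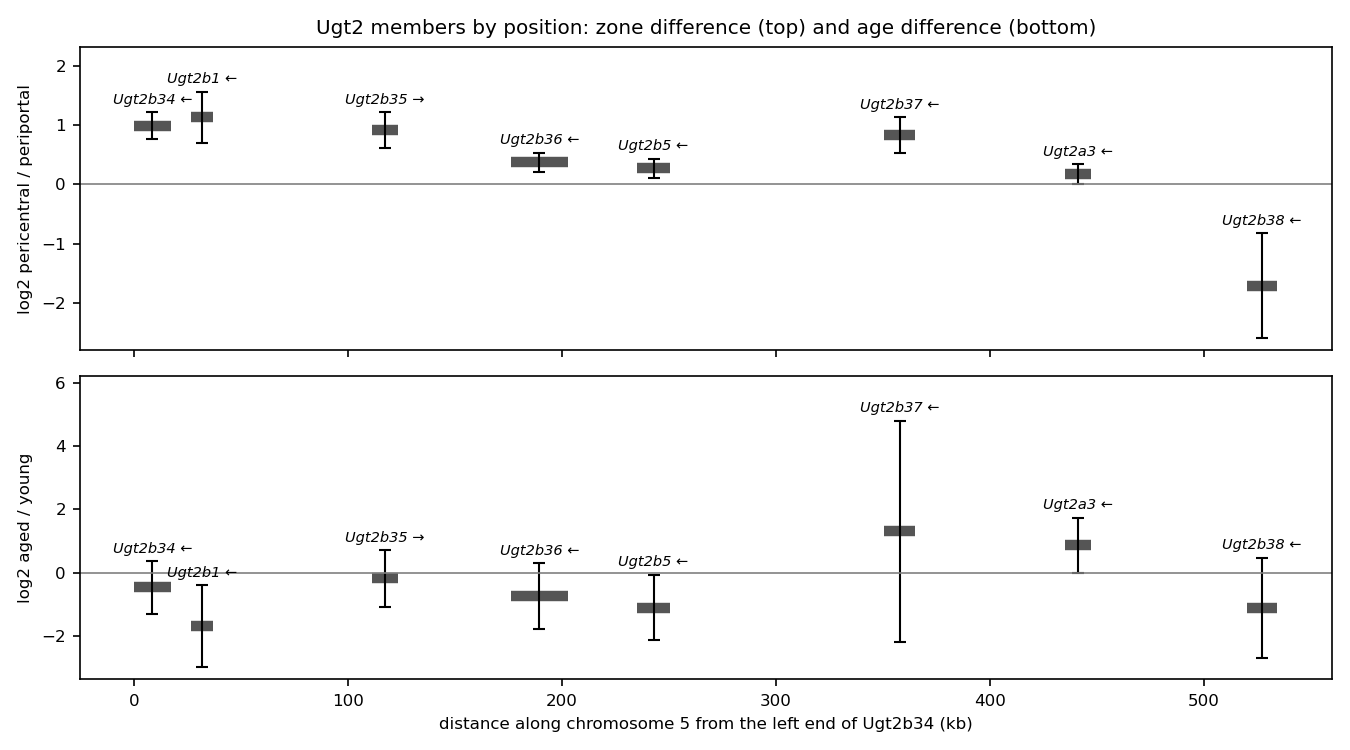
Fitted log2 differences of the 8 genes (grey bars, to scale along the x axis in kb from the left end of Ugt2b34; whiskers, 95% intervals; arrows, strand), pericentral over periportal nuclei in the upper panel and aged over young in the lower panel. Ugt2b38, at the right end of the row, had a zone difference of -1.71, against 0.17 to 1.13 for the other 7 genes.

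Per length, Ugt2b37 and Ugt2b38 were far below the other 6 genes, and Ugt2b34 was the lowest of these 6. In unscaled CPM per kilobase of gene span, Ugt2b1 lay between 21.3 and 115 over the 4 libraries, Ugt2b5 between 17.6 and 55.8, Ugt2b36 between 18.8 and 38.2, Ugt2a3 between 16.5 and 38.6, Ugt2b35 between 19.0 and 27.4 and Ugt2b34 between 8.18 and 17.1. Ugt2b37 lay between 0.0907 and 4.32 and Ugt2b38 between 0.340 and 2.64. Neighbours in this order of levels overlapped in their ranges over libraries except at 2 gaps, between Ugt2b35 and Ugt2b34 and between Ugt2b34 and the pair of Ugt2b37 and Ugt2b38. Gene span was used because nuclear RNA is read from introns too, and how intronic reads were counted is not stated.

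The comparison of aged with young hepatocyte-like nuclei asked whether the family's RNA differed with age. Together the 8 genes gave 2044 and 1970 unscaled CPM in the aged libraries and 3834 and 2737 in the young ones, so both aged libraries lay below both young ones. None of the 8 passed the test on all genes (edgeR quasi-likelihood, Benjamini-Hochberg threshold 0.05, both groups in 1 fit), where 4 of 15665 genes passed (0.0255%). In 4 of the 8 genes (Ugt2b1, Ugt2b5, Ugt2b34 and Ugt2b36) both aged libraries lay below both young ones, against 26.2% of all genes, and in 1, Ugt2a3, both lay above, against 25.8%. An unadjusted p under 0.05 was reached by Ugt2b1 and Ugt2b5, and by 19% of all genes tested. The median log2 fold change was -0.60 over the 8 genes and -0.02 over all genes.

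Ugt2b1, whose rat counterpart conjugates testosterone and bisphenol A, had the lowest aged values relative to young. It stood at 217 and 313 CPM (TMM-scaled, as are all levels in this comparison) in aged replicates 1 and 2, against 1232 and 463 CPM in young replicates 1 and 2. The groups did not overlap, but the young libraries differed by more from each other than the lower young library did from the aged ones. The means were 265 ± 67.8 CPM in aged and 848 ± 543 CPM in young libraries (SD, n = 2 each), with a log2 fold change of -1.68 ± 0.55 (SE; edgeR adjusted p = 0.199). Without young replicate 2 the same test gave -2.18 and an adjusted p of 0.000549, and without aged replicate 1 it gave -1.42 and an adjusted p of 0.755, in each case with the lone library of a group assumed to vary like the other group. Without young replicate 1, the library with the highest level, it gave -0.79 and an adjusted p of 0.302. DESeq2 on all 4 libraries gave an adjusted p of 0.037.

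Ugt2b5 and Ugt2b36, 2 neighbours in the row, were also lower in both aged libraries. Ugt2b5 had 279 and 448 CPM in aged libraries, against 925 and 631 CPM in young ones (log2 fold change -1.10 ± 0.44, SE; edgeR adjusted p = 0.247). Ugt2b36 had 553 and 502 CPM in aged libraries, against 1098 and 653 CPM in young ones (-0.73 ± 0.44; adjusted p = 0.408). Without young replicate 2 the adjusted p of Ugt2b5 was 0.0388, and it lay between 0.0388 and 0.925 over all alternatives. Ugt2b34 had 219 and 141 CPM in aged libraries and 230 and 265 CPM in young ones, with a smaller gap between the group means than between the 2 aged libraries (log2 fold change -0.46 ± 0.35; adjusted p = 0.519).

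Ugt2a3 was the member with higher values in both aged libraries. Its human counterpart is known to conjugate bile acids. It had 487 and 308 CPM in aged libraries, against 218 and 219 CPM in young ones (0.86 ± 0.37, SE; edgeR adjusted p = 0.268). The young libraries were close to each other and the aged ones were apart, with aged replicate 1 the highest and no overlap between the groups. Ugt2b35 had 286 and 236 CPM in aged libraries and 367 and 220 CPM in young ones, with overlapping groups (-0.17 ± 0.38; adjusted p = 0.845).

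The rare members split the libraries in other ways than by age. Ugt2b37 had 63.8 and 2.42 CPM in aged replicates 1 and 2, and 26.0 and 1.17 CPM in young replicates 1 and 2. Replicate 1 of each group was thus high and replicate 2 of each group low, and the 95% interval of the log2 fold change ran from -2.19 to 4.81 (adjusted p = 0.674). Without aged replicate 1 the direction turned (-2.45; adjusted p = 0.0451), without aged replicate 2 it was 2.29 (adjusted p = 0.000196), and without young replicate 1 it was 4.80 (adjusted p = 0.00902). Ugt2b38 had 5.01 and 22.8 CPM in aged libraries and 40.6 and 20.02 CPM in young ones (-1.11 ± 0.68; adjusted p = 0.414), and the low library was aged replicate 1, whose male-biased genes were also lowest. Without aged replicate 2 its log2 fold change was -2.55 (adjusted p = 0.000918).

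Without aged replicate 1, the library that stood apart, the log2 fold changes were -0.78 for Ugt2b5, -0.80 for Ugt2b34, -0.39 for Ugt2b38 and 0.51 for Ugt2a3, each with the direction it had in the fit of all 4 libraries. Without young replicate 1 they were -0.78 for Ugt2b5, -0.30 for Ugt2b36 and -0.50 for Ugt2b38, all nearer to 0 than with it. Those of Ugt2b34 (-0.55) and Ugt2b37 (4.80) were further from 0 than with it, and that of Ugt2a3 was 0.87. Without aged replicate 1 the direction of Ugt2b37 turned, and without young replicate 1 that of Ugt2b35 turned, from -0.17 to 0.26.

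**Figure D2:**
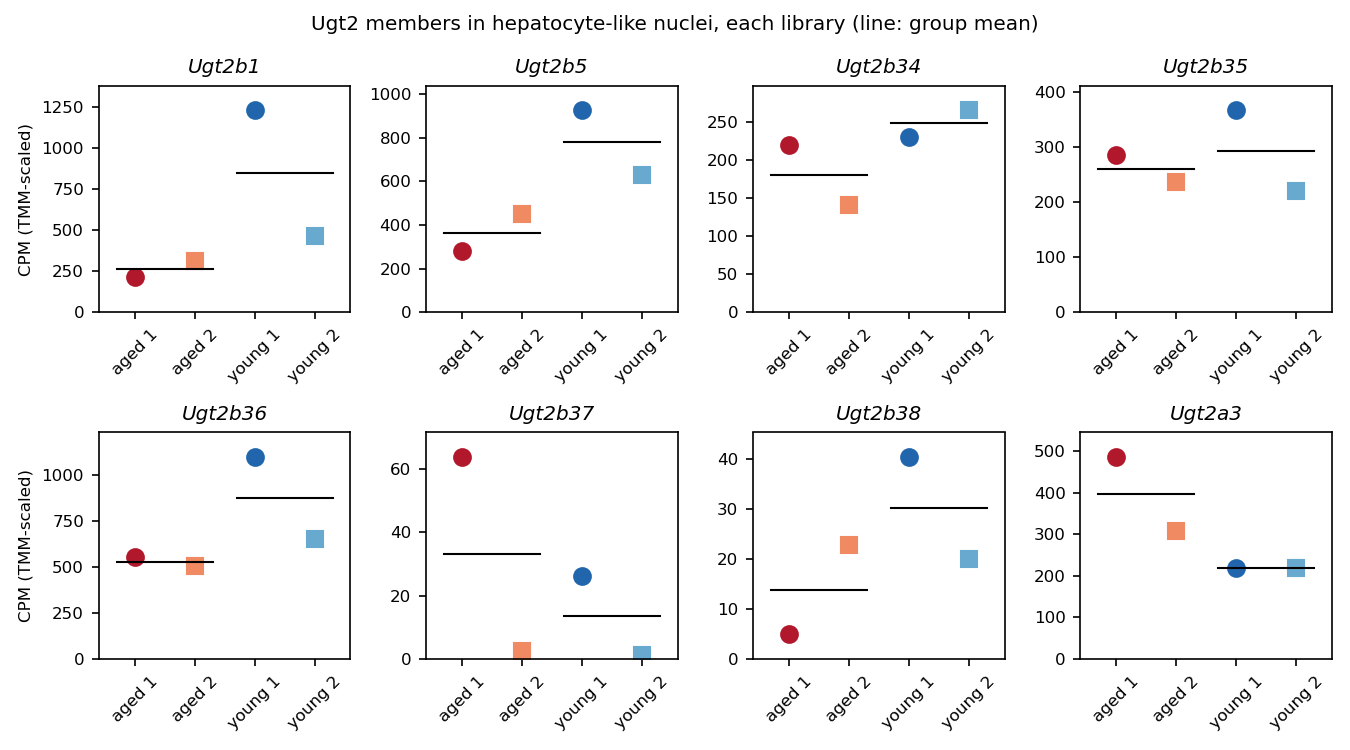
Level of each of the 8 genes in hepatocyte-like nuclei (y axis, TMM-scaled CPM) in the 2 aged libraries on the left and the 2 young libraries on the right of each panel; the lines are group means. Ugt2b1 lay at 217 and 313 CPM in aged and 1232 and 463 CPM in young libraries, and Ugt2b37 was high in replicate 1 of both groups.

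Markers of other liver cells inside hepatocyte-like nuclei also differed between the groups. The 9 endothelial markers, none of them at 0, summed to 96.2 and 83.5 CPM in aged and 186 and 180 CPM in young libraries. The 9 macrophage markers, none at 0, summed to 39.3 and 22.6 CPM in aged and 56.0 and 116 CPM in young libraries. The sum of the 9 T and natural killer cell markers went the other way, with 93.8 and 66.7 CPM in aged and 31.6 and 51.5 CPM in young libraries. Most of the aged sums came from 1 marker in each library. The highest marker had 69.6 and 47.0 CPM in aged and 12.6 and 23.5 CPM in young libraries. Of the 9 markers, 1 and 0 were at 0 in aged and 2 and 0 in young libraries. The 5 mesothelial markers summed to 0.564 and 1.86 CPM in aged and 3.12 and 6.40 CPM in young libraries, with 2 of them at 0 in aged replicate 1. The sums of the stellate, B cell, cholangiocyte and dendritic marker lists overlapped between the groups. Those of the 10 hepatocyte markers did not, with 22359 and 18444 CPM in aged and 22905 and 23094 CPM in young libraries. The part of any of these markers in the age values was not tested. Less RNA of a gene per nucleus and more RNA of other genes cannot be told apart in counts relative to a total.

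In droplets the family's RNA was found outside hepatocytes as well. In endothelial-like nuclei, which line the liver's blood vessels, the 6 common members stood at 38.3% to 85.2% of their hepatocyte-like CPM in the same library. The hepatocyte gene Alb, which encodes serum albumin and which endothelial cells do not make, stood at 71.8% and 81.8% in aged and 110% and 76.4% in young libraries. Levels of the 6 genes in endothelial-like nuclei were thus near to or below that of Alb, relative to hepatocyte-like nuclei. The source of this RNA was not tested, and these levels are not taken as expression by endothelial cells. Ugt2b1 for example had 114 and 255 CPM in aged and 437 and 361 CPM in young endothelial-like nuclei.

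**Figure D3:**
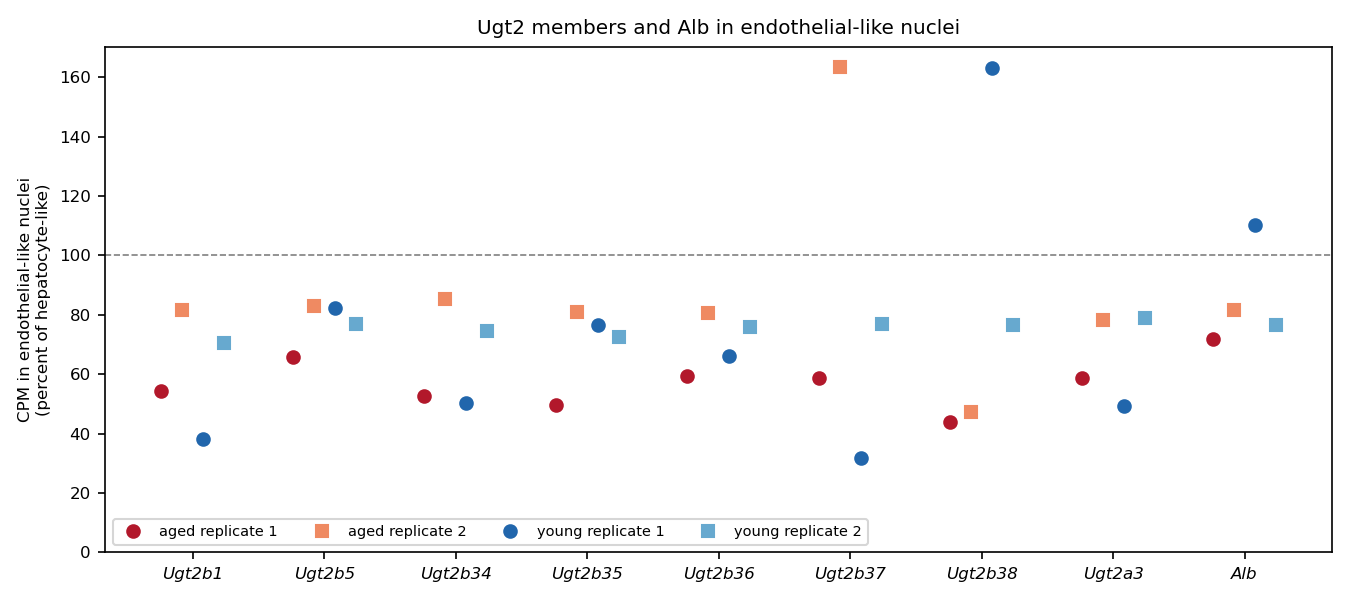
Level of each member and of Alb in endothelial-like nuclei as a percentage of the level in hepatocyte-like nuclei of the same library (y axis; dashed line, equal levels). The 6 common members lay between 38.3% and 85.2% and Alb between 71.8% and 110%; the values of Ugt2b37 and Ugt2b38 rest on 50 and 65 UMIs over all 4 libraries.

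The share of nuclei with a UMI was compared after each nucleus had been thinned to 500 UMIs. At least 1 UMI of any member was seen in 59.7% and 57.9% of aged and in 83.3% and 72.9% of young hepatocyte-like nuclei. In endothelial-like nuclei the shares were 26.2% and 46.0% in aged and 64.7% and 60.6% in young libraries, at unthinned median depths of 1078 and 1350 UMIs in aged and 882 and 1042 UMIs in young libraries. The hepatocyte-like share was above the endothelial-like share in 4 of 4 libraries. UMIs of 2 or more members were seen in 20.7% and 20.5% of aged and in 48.0% and 33.4% of young hepatocyte-like nuclei.

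Ugt2b1 was detected in 8.13% (95% exact binomial interval 7.42 to 8.88) and 13.2% (12.5 to 14.0) of aged hepatocyte-like nuclei, and in 37.9% (35.4 to 40.5) and 20.9% (20.1 to 21.7) of young ones. Its shares in endothelial-like nuclei were 3.64% and 7.74% in aged and 11.8% and 13.3% in young libraries. Without thinning, the hepatocyte-like shares were 30.6% and 47.9% in aged and 84.2% and 37.9% in young libraries, where depth differs. Ugt2a3 went the other way, with 20.2% and 13.6% of aged and 9.99% and 11.4% of young hepatocyte-like nuclei, and 6.55% and 10.6% of aged and 4.41% and 8.20% of young endothelial-like nuclei. Intervals cover counting error only, and 2 against 2 libraries allow 6 label orders, so no exact permutation p could fall below 0.333 and none is given.

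The next comparison asked how the family is distributed along the lobule. A score that sets 14 pericentral against 14 periportal landmark genes, with no Ugt2 gene among them, ranked the hepatocyte-like nuclei of a library, which were cut into 3 equal parts, of which the highest and the lowest are called pericentral and periportal nuclei. The score is a range, not a cell type. Median depth was 2778 and 3155 UMIs in pericentral against 2729 and 3453 UMIs in periportal nuclei of aged replicates 1 and 2, and 3898 and 989 against 3386 and 941 UMIs in those of young replicates 1 and 2. In the middle part the medians were 1216 and 2216 UMIs in aged and 3384 and 854 UMIs in young libraries. The middle part of aged replicate 1 had a median of 1.41% mitochondrial UMIs, against 0.55% in its pericentral and 0.68% in its periportal nuclei. Of the 8 genes, 7 passed the test with the library as a block (edgeR quasi-likelihood, adjusted over 14031 genes other than the landmarks), where 20.9% of all genes passed. Higher in pericentral nuclei were 6 of the 8 (10.6% of all genes), and 1 of the 8 was lower (10.3%). The median log2 difference was 0.60 over the 8 genes and -0.01 over all genes. The 6 were higher in pericentral nuclei in 4 of 4 libraries, as were 18% of all genes. Without aged replicate 1, 5 of the 8 passed, with Ugt2b5 and Ugt2b37 lost.

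Ugt2b1 had the largest fitted pericentral excess of the 8, which rested on aged replicate 1: without it the log2 difference was 0.86 for Ugt2b1 and 0.90 for Ugt2b34, and in each of the other 3 libraries at least 1 other member had a larger ratio. In unscaled CPM it stood at 345 in pericentral, 192 in middle and 83.2 in periportal nuclei of aged replicate 1, and at 449, 277 and 200 in those of aged replicate 2. In young replicate 1 it stood at 1383, 1166 and 835, and in young replicate 2 at 632, 494 and 406. The level thus fell step by step towards the portal end in each of the 4 libraries, and the log2 difference of pericentral over periportal nuclei was 1.13 ± 0.19 (SE; edgeR adjusted p = 0.00222). In 5 equal bins of the score the unscaled CPM of aged replicate 1 was 76.5 at the periportal end and 382 at the pericentral end, and in young replicate 1 it was 753 and 1399 at the same ends.

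Ugt2b34 and Ugt2b35, on either side of Ugt2b1 in the row, followed the same order. Ugt2b34 had 312 and 210 unscaled CPM in pericentral against 130 and 93.9 in periportal nuclei of the aged libraries, and 261 and 388 against 164 and 222 in those of the young ones (0.99 ± 0.10; edgeR adjusted p = 0.000105). Ugt2b35 had 405 and 349 unscaled CPM in pericentral against 171 and 144 in periportal nuclei of the aged libraries, and 393 and 309 against 293 and 193 in those of the young ones (0.92 ± 0.13; adjusted p = 0.000884). No library departed from this order, and both calls held under every alternative tried for this comparison, 12 in each case.

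Ugt2b37 was pericentral too, although its level differed widely between libraries and its counts were small in replicate 2 of each group. In aged replicate 2, Ugt2b37 had 36 UMIs in pericentral against 27 in periportal nuclei, and in young replicate 2 it had 8 against 3. It had 85.1 and 2.90 unscaled CPM in pericentral against 43.7 and 2.27 in periportal nuclei of the aged libraries, and 32.0 and 2.10 against 19.1 and 0.825 in those of the young ones (0.83 ± 0.14; edgeR adjusted p = 0.00168). Without aged replicate 1, the library with most of its counts, the difference was 0.66 and the adjusted p 0.130. Ugt2b36 and Ugt2b5 had shallower slopes, with log2 differences of 0.37 ± 0.07 (adjusted p = 0.00543) and 0.27 ± 0.07 (adjusted p = 0.0273). Ugt2b5 had 294 and 532 unscaled CPM in pericentral against 242 and 385 in periportal nuclei of the aged libraries, and 893 and 738 against 808 and 652 in those of the young ones. Its adjusted p was 0.0566 without aged replicate 1, 0.122 without aged replicate 2 and 0.0521 without young replicate 2.

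Ugt2b38 ran against the rest of the family. It had 6.22 and 5.49 unscaled CPM in pericentral against 3.67 and 41.7 in periportal nuclei of aged replicates 1 and 2, and 19.95 and 13.1 against 65.9 and 32.2 in those of young replicates 1 and 2. It was lower in pericentral nuclei in 3 of 4 libraries, and aged replicate 1, where the gene was scarce, was the exception. The log2 difference was -1.71 ± 0.39 (SE; edgeR adjusted p = 0.0119), and without aged replicate 1 it was -2.11 (adjusted p = 0.000568). Leaving out aged replicate 2 gave -1.02 (adjusted p = 0.0681), leaving out young replicate 1 gave an adjusted p of 0.051, and DESeq2 gave -1.34 (adjusted p = 0.224), none of which passes. Its closest copy, Ugt2b5, was higher in pericentral nuclei, and the counts of both genes are uncertain in the stretches they share.

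Ugt2a3 was the member with no zone call. It had 518 and 327 unscaled CPM in pericentral against 447 and 293 in periportal nuclei of the aged libraries, and 232 and 246 against 182 and 249.3 in those of the young ones. The log2 difference was 0.17, with a 95% interval of -5.34e-05 to 0.34 (edgeR adjusted p = 0.159). It passed with nuclei of at least 1000 UMIs (0.22; adjusted p = 0.0498) and with the outer of 5 bins (0.29; adjusted p = 0.0408). Its adjusted p was at most 0.365 over all alternatives.

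**Figure D4:**
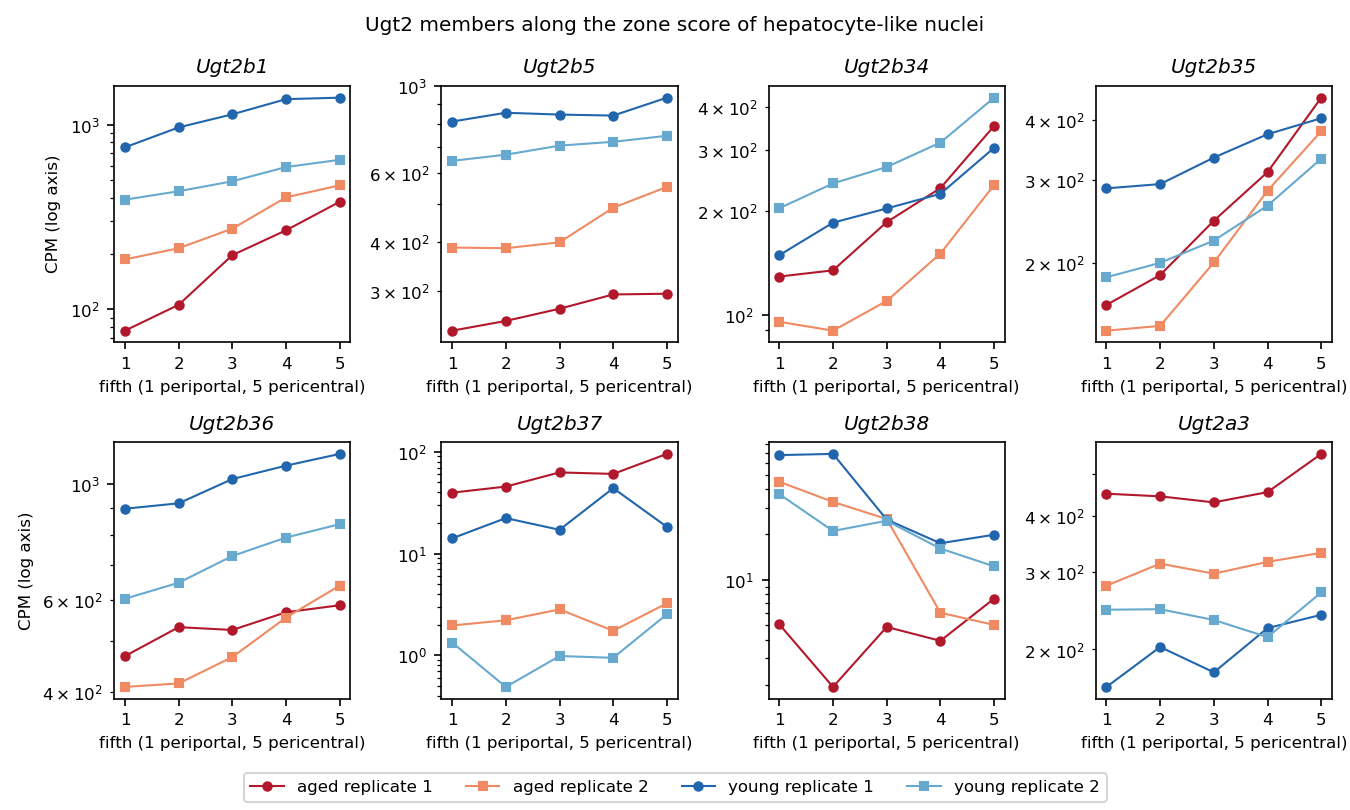
Unscaled CPM of each gene (y axis, log scale) in 5 equal bins of hepatocyte-like nuclei from the periportal end (1) to the pericentral end (5), with a line for each library. Ugt2b1 increased from bin to bin in all 4 libraries, and Ugt2b38 had its highest value in bin 1 or bin 2 in 3 of the 4 libraries, aged replicate 1 being the exception.

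The zone by age term asked whether the pericentral excess differed between the age groups. No member passed it (edgeR quasi-likelihood), where 8 of 14031 genes passed (0.057%), while 3 of the 8 (Ugt2b1, Ugt2b34 and Ugt2b35) had an unadjusted p under 0.05, against 5.85% of all genes. For Ugt2b35 the ratio of pericentral to periportal CPM was 2.36 and 2.43 in the aged libraries and 1.34 and 1.60 in the young ones, with a log2 difference between the groups of 0.71 ± 0.14 (SE; adjusted p = 0.229). For Ugt2b1 the ratio was 4.15 and 2.25 in aged and 1.66 and 1.56 in young libraries (0.90 ± 0.25; adjusted p = 0.424), and for Ugt2b34 it was 2.41 and 2.23 in aged and 1.59 and 1.75 in young libraries (0.47 ± 0.14; adjusted p = 0.499). The aged ratios exceeded the young ones in each of these 3 genes, which had been picked by the p of this term. Ugt2b5 separated too, with ratios of 1.22 and 1.38 in aged and 1.10 and 1.13 in young libraries. The share of all genes that separated in this way was not computed. The term of Ugt2b1 was 0.44 without aged replicate 1 (adjusted p = 0.293) and 1.36 without aged replicate 2 (adjusted p = 0.000396), and that of Ugt2b38 was -1.45 without aged replicate 1 (adjusted p = 0.00465) and 2.26 without aged replicate 2 (adjusted p = 0.014). That of Ugt2b35 was 0.69 without aged replicate 1, with an adjusted p of 0.032.

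**Figure D5:**
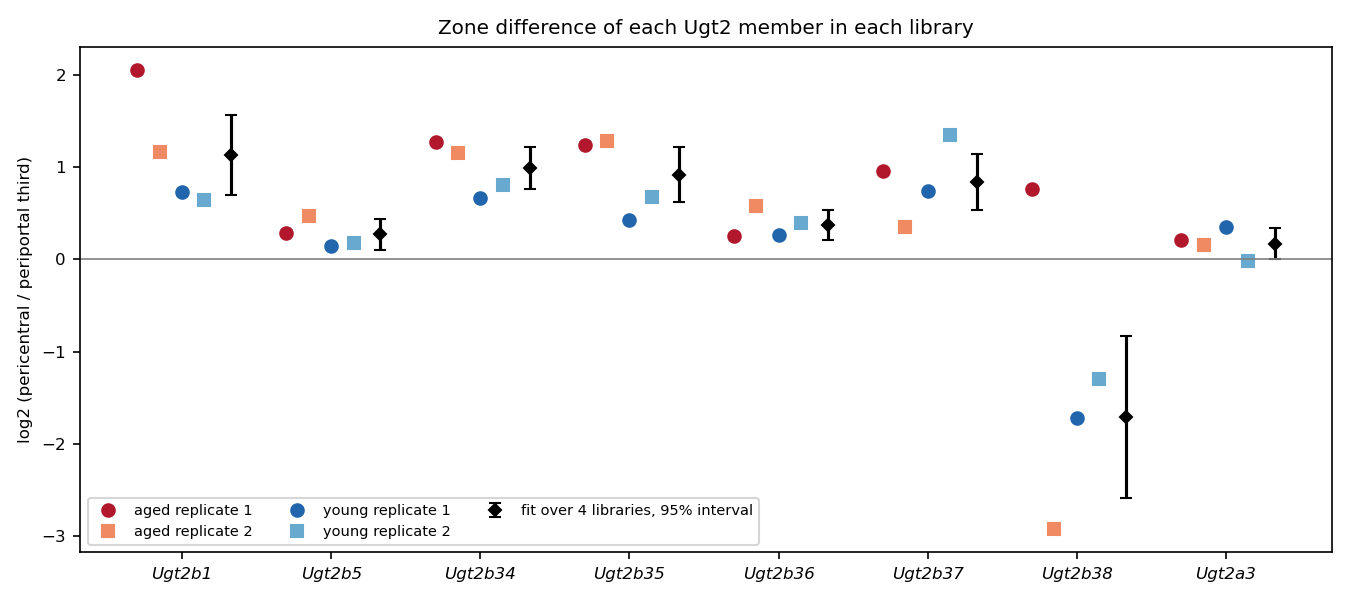
Log2 ratio of pericentral to periportal CPM (y axis) of each gene, with the 2 aged libraries left of the 2 young libraries and the fit over all 4 libraries with its 95% interval in black. The aged points of Ugt2b1, Ugt2b5, Ugt2b34 and Ugt2b35 lie above the young ones, and aged replicate 1 is the lone positive point of Ugt2b38.

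The age difference was also fitted within each zone, with 0 of the 8 genes passing in either. In pericentral nuclei 0.0152% of 13192 genes passed, and in periportal nuclei 0.0077% of 12983. An unadjusted p under 0.05 was reached by Ugt2b1 and Ugt2b38 in pericentral nuclei (16.2% of all genes) and by Ugt2b1 and Ugt2b5 in periportal nuclei (17.7%). Ugt2b1 had 365 and 443 TMM-scaled CPM in aged pericentral nuclei, against 1467 and 580 CPM in young ones (-1.34 ± 0.52; edgeR adjusted p = 0.279). In periportal nuclei it had 87.5 and 200 CPM in aged libraries, against 887 and 370 CPM in young ones (-2.12 ± 0.59; adjusted p = 0.195; DESeq2 adjusted p = 0.0101). Without young replicate 1 the log2 fold change of Ugt2b1 was -0.51 in pericentral and -1.34 in periportal nuclei (adjusted p = 0.512 and 0.182), and without young replicate 2 it was -1.84 and -2.59 (adjusted p = 0.189 and 0.0422). The groups did not overlap in either zone for Ugt2b1, Ugt2b5 and Ugt2b36, which were lower, and for Ugt2a3, which was higher in both aged libraries; 25.1% and 25.3% of all genes tested did so downwards and upwards in pericentral nuclei and 25.6% each way in periportal nuclei. Ugt2b38 in pericentral nuclei had 6.58 and 5.41 CPM in aged libraries, against 21.2 and 12.05 CPM in young ones (-1.46 ± 0.45; adjusted p = 0.237), and Ugt2b34 separated in periportal nuclei, with 136 and 94.1 CPM in aged libraries against 174 and 202 CPM in young ones.

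Genes that supply the reaction or move its products were looked at from lists. Of the 6 genes for making and delivering UDP-glucuronate, none passed for age, and Pgm1 and Slc35d1, which carries nucleotide sugars into the endoplasmic reticulum, were higher in pericentral nuclei (log2 0.38 and 0.28; edgeR adjusted p = 0.00622 and 0.0353). Ugdh, which makes UDP-glucuronate, had 111 and 195 unscaled CPM in aged libraries and 335 and 202 in young ones (age adjusted p = 0.369), and Uxs1, which uses it up, had 22.6 and 25.8 in aged and 36.3 and 39.7 in young libraries (adjusted p = 0.312). Gusb, the lysosomal glucuronidase that removes glucuronic acid, and Ces1e were lower in pericentral nuclei (-0.75 and -0.30; adjusted p = 0.0123 and 0.0489). Of 9 transporters of conjugates and other organic anions, 6 were higher and none lower in pericentral nuclei, against 10.6% and 10.3% of all genes. The 6 were Abcc4 (4.54), Slco1b2 (1.74), Abcg2 (0.94), Abcc2 (0.73), Slco1a1 (0.67) and Abcc3 (0.55). The median zone difference was 0.67 over the 9 transporters and 0.16 over the 6 supply genes, against -0.01 over all genes.

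Outside the 8 genes, 3 of the listed genes with a Ugt symbol that could be tested had a zone call, where 20.9% of all genes had one. Of the 9 Ugt1a genes 8 could be tested for zone, and Ugt1a6a was higher (0.39; edgeR adjusted p = 0.00354) and Ugt1a9 lower (-0.92; adjusted p = 0.029) in pericentral nuclei. Counts of single Ugt1a genes are uncertain because their transcripts share exons. Ugt1a6a had 94.9 and 63.1 unscaled CPM in aged libraries, against 44.8 and 44.99 in young ones (age adjusted p = 0.242). Among 5 further genes, Ugt2a1 and Ugt2a2 included, 2 could be tested, and Ugt3a2 was higher in pericentral nuclei (0.58; edgeR adjusted p = 0.000479). Ugt3a1 had 85.4 and 67.6 unscaled CPM in aged libraries, against 27.4 and 32.8 in young ones (log2 fold change for age 1.40; adjusted p = 0.143).

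Among 20 regulators 7 were higher and 3 lower in pericentral nuclei, against 10.6% and 10.3% of all genes, and none passed for age. Higher were the xenobiotic receptors Ahr (2.55; edgeR adjusted p = 1.46e-05) and Nr1i3 (1.92; adjusted p = 5.64e-05), the lipid sensor Ppara (0.77), Rxra (0.68), the partner of many nuclear receptors, Stat5a (0.57), the growth hormone receptor Ghr (0.35) and the oxidative stress factor Nfe2l2 (0.33). Lower were Cux2 (-1.50), Foxa3 (-0.53) and Onecut1 (-0.44). Of 10 targets of inducible receptors 8 could be tested for zone, and Cyp2c29 (2.84), Cyp4a14 (1.86), Cyp2c55 (1.62), Cyp4a10 (1.29) and Gstm1 (0.32) were higher in pericentral nuclei. Cebpb, the smallest age p of the regulators, had 117 and 80.9 unscaled CPM in aged libraries, against 449 and 308 in young ones (-1.92; adjusted p = 0.142).

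Steroids are substrates of the family, and 8 of 13 genes of steroid metabolism had a zone call, where 20.9% of all genes had one. Among them, Akr1c6 (2.40), Hsd3b5 (0.45), Hsd17b11 (0.41) and Akr1c14 (0.27) were higher in pericentral nuclei, and Hsd17b6 (-2.78), Srd5a2 (-0.64) and Srd5a1 (-0.53) were lower, each under an edgeR adjusted p of 0.05. None of the 13 passed for age.

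Of the 18 male-biased liver genes 8 were higher in pericentral nuclei (Susd4, Cyp4a12b, Cyp4a12a, C6, Elovl3, Cyp2d9, Slco1a1 and Hsd3b5) and 5 lower (Serpina1e, Cyp2u1, Mup3, Mup20 and Egfr). Over all genes 10.6% were higher and 10.3% lower. Of 11 female-biased genes that could be tested, 3 were higher (Slc22a27, Cyp2b13 and Slc22a26) and 4 lower, among them Cyp17a1, Cux2 and Abcd2. For age 10 female-biased genes passed the filter, and 9 of these were highest in aged replicate 1, so no median over them is given. None of either list passed for age, and the median log2 fold change for age was -1.75 over the 18 male-biased genes, with aged replicate 1 lowest in the sum of the male-biased genes and highest in that of the female-biased ones.

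The members were last set against each other and against all other genes over 12 sums (4 libraries by 3 score parts). These points share libraries, so correlations are given as a description. Ugt2b1 ran with Ugt2b5 (Pearson r = 0.92) and Ugt2b36 (0.90), and Ugt2a3 ran opposite to Ugt2b5 (-0.88) and Ugt2b38 (-0.77). The genes most like Ugt2b1 were Psmd14, Rbm26 and Skp1a (0.97 each), those most like Ugt2b5 were Oga, Ywhaz and Csnk1d (0.99 each), and those most like Ugt2b36 were Hnrnph3 (0.97), Azin1 and Ahcyl1 (0.96 each). Ugt2b34 was most like Jtb, Slc16a11 and Tbx3os1 (0.93 each), and Ugt2b35 most like Tmtc2 (0.95), Pros1 (0.94) and Shroom2 (0.93). Ugt2b37 was most like Tchh (0.99), Acsl1 (0.98) and Hacl1 (0.97), Ugt2b38 most like Dnm1l (0.94), Gmps and Hdlbp (0.93 each), and Ugt2a3 most like F13b (0.99), Tenm2 (0.98) and Kcnrg (0.97). No member was among the 3 genes most like another.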

How the data were processed

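RNA was measured in single nuclei of 4 mouse liver libraries. The authors deposited raw UMI counts for every gene in every barcode, with Cell Ranger 7.1.0 and mm10 named in the submitters' processing notes. The sources used here give neither the annotation release nor the handling of intronic reads. Each library held between 11799751 and 54777101 UMIs. Barcodes were kept with at least 500 UMIs, 300 genes and at most 5% mitochondrial UMIs. Doublets were scored with Scrublet (scanpy 1.11.5), whose automatic threshold marked 7 barcodes and was replaced by removal at 0.8% per 1000 barcodes (3964 nuclei). Any 2 libraries shared 8 to 67 barcodes. Clusters (Leiden, igraph 0.11.9, resolution 1) took the name of a class, with "-like", where 3 or more of its markers were found. Clusters with markers of 2 classes were split again and otherwise left unnamed, by a rule written with the data in view.

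Counts were summed per library and tested with edgeR 4.0.16 (TMM, filterByExpr, quasi-likelihood, two-sided, Benjamini-Hochberg over all genes tested), after checks on simulated data. The simulation gave all genes the same fixed variation between libraries and planted only large changes. It therefore does not show how the test performs at the variation of these libraries. All 8 members passed the filter in each fit. Replicates were not copies of 1 library: the chi-square statistic over genes, divided by its degrees of freedom, was 127 for the aged and 69.7 for the young pair. Same-numbered libraries did not deviate together (correlation -0.21 over 15665 genes), so replicate numbers were not used to pair them. Alternatives were DESeq2 1.42.0, other scaling and filters, other zone cuts, other nuclei and libraries left out. Promoters came from RefSeq (8 of 8 members matched), positions and transcripts from GENCODE vM21. Motifs, the identity of promoters and of reading frames and the shared 90-base words were computed from these. Members, lists and motifs were chosen with earlier results of these data known. Named were all members, list genes with a call in any comparison or else those with the smallest p for age, and for each member the 3 genes with the highest Pearson correlation, leaving out predicted, Rik, mitochondrial and ribosomal protein genes and those under 10 CPM. Some list genes with a call are not reported here. Ugdh, Uxs1, Ugt3a1 and Cebpb were named after their values were seen.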

Additional observations from a re-analysis of the deposited data

How the results depend on the processing

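All counts are of genes or members with an adjusted p under 0.05. For age in all hepatocyte-like nuclei, 4 genes passed in edgeR, 816 in DESeq2, 1622 with no filter on low counts, 2 at no more than 1% mitochondrial UMIs, 7 with doublets kept, 1 over all classes together, and 219 to 1635 with a library left out; members numbered 0, with 1 in DESeq2, 2 with no filter and 1 to 2 with a library left out. In pericentral nuclei the genes numbered 2, with 380 in DESeq2, 1143 with no filter, 1 with the outer of 5 bins and 0 to 186 with a library left out, and 1 member with no filter. In periportal nuclei the genes numbered 1, with 483 in DESeq2, 1224 with no filter, 0 with the outer of 5 bins and 97 to 621 with a library left out, and members 1 in DESeq2, 1 with no filter and 0 to 1 with a library left out. The cause of these shifts was not tested; where a library is left out, the lone one of its group is assumed to vary like the other group. Zone calls numbered 7 members and 5 to 8 over its alternatives. The zone by age term gave 8 genes, with 19 in DESeq2, 14 with RLE size factors, 113 with no filter, 5 with the outer of 5 bins, 14 at 1000 UMIs and 0 to 189 with a library left out, and members 2 with no filter and 0 to 2 with a library left out.

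With a library left out, 1 at a time, the age log2 fold change of Ugt2b37 ran from -2.45 to 4.80 in all, -2.58 to 4.57 in pericentral and -2.10 to 4.95 in periportal nuclei, each negative without aged replicate 1. That of Ugt2b35 ran from -0.46 to 0.26 in all nuclei, and from -0.090 to 0.46 in pericentral nuclei (-0.0067 without aged replicate 1), and that of Ugt2b34 from -0.60 to 0.092 in pericentral nuclei. The zone by age term ran from -0.51 to 0.16 for Ugt2b37, from -1.45 to 2.26 for Ugt2b38, from -0.085 to 0.20 for Ugt2b36 and from -0.20 to 0.17 for Ugt2a3. It also turned in DESeq2 for Ugt2b37 (-0.13) and Ugt2b38 (0.38), and for Ugt2a3 with no filter (-0.014), with 2 score parts (-0.0023), with the outer of 5 bins (-0.031) and at 1000 UMIs (-0.032). No zone difference of a member turned.

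With the replicate number as a block, 3 genes passed for age in all, 1 in pericentral and 2 in periportal nuclei, with 0 members each. A crossed pairing, added after seeing the data because the numbers ran opposite, gave 157, 479 and 34 genes and 0 members.

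The share of hepatocyte-like nuclei with a UMI of any member was 82.1% and 80.0% in aged and 96.1% and 91.0% in young libraries thinned to 1000 UMIs, and 88.8% and 92.2% in aged and 99.0% and 89.2% in young libraries unthinned. At 500 UMIs per nucleus the detection of Ugt2b37 and Ugt2b38 is limited by depth.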
